A study of Mus musculus with 4 samples.

Results

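The Kruppel-like factors are zinc finger transcription factors, and 10 genes of the family were followed here over the 4 arrays of this series: Klf2, Klf3, Klf4, Klf5, Klf6, Klf7, Klf10, Klf11, Klf13 and Klf15. They were taken by gene symbol from 26688 named genes on the array, where 18 probes carried their names. The arrays measured total RNA of IMS/N cells, hepatic stellate cells of normal 129/Sv mice immortalized with SV40, in 1 culture per group. The groups were cells given recombinant murine IL17A together with ADSC medium, which is culture medium taken from stem cells of adipose tissue (ADSC), cells given ADSC medium alone, cells given IL17A alone, and untreated cells. The stem cells came from inguinal subcutaneous fat of male C57BL/6J mice aged 8 to 10 weeks. Doses and times are not given in the sources used here. All groups share the SV40 immortalization, and the study used a single line, which limits it as a model of stellate cells in the liver.

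Kruppel-like factors bind GC-rich and CACCC-type DNA elements through zinc fingers at the C-terminus. Their N-terminal parts differ and set the partner: Klf3 recruits the corepressor CtBP, Klf10, Klf11 and Klf13 bind the corepressor Sin3a, and Klf2, Klf4, Klf5, Klf6 and Klf7 act largely through activation domains. KLF6 was cloned from activated rat hepatic stellate cells and is the member best known in this cell type. Many family genes are induced quickly by serum, growth factors, glucocorticoids or fluid flow.

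Each array held 43379 spots that were not controls, and between 58.1% and 60.5% of them were well above background. Levels below are log2 signals after quantile normalization, in which every array is given the same distribution. With 1 array per group no single comparison has a test, and "past 2-fold" then means only that the log2 difference of 2 arrays was 1 or more in size. From repeated spots within an array, the technical SD of such a difference was 0.086 at log2 levels of 7 and above. It was 0.14 from 5 to 7 and 0.31 below 5, and it holds no variation between arrays, slides or cultures. A larger SD, 0.11, 0.26 and 0.43 in these classes, came from the differences of the IL17A differences over all genes. Adjusted p-values come from an additive limma fit over all 4 arrays, with an IL17A term and an ADSC medium term, 1 residual degree of freedom per gene and Benjamini-Hochberg adjustment over 15476 genes. The fit assumes that IL17A and medium add on the log2 scale. Its SEs rest on departures from that sum, with variance shared over genes by level, and not on replicate arrays. The arrays without medium lay on slide 1 and those with medium on slide 2, so medium and slide cannot be told apart. Whether a change in bulk RNA reflects fewer cells of a kind or less RNA per cell cannot be told apart either. Of 14 stellate cell and myofibroblast markers, 9 were above background in untreated cells, among them Acta2, Pdgfrb and Col1a1. Hand2, Reln and Gfap were not well above background on any array. Lrat was above background only with both agents and Hgf only with IL17A alone. None of 4 hepatocyte markers on the array was above background on any array. Other marker lists held bright genes. In untreated cells 3 of 4 cholangiocyte markers were above background, among them Krt19 at 9.38 and Sox9 at 8.32 but not Epcam. So was 1 of 3 mesothelial markers, Msln at 14.03, without Upk3b and Wt1. Of 5 adipocyte and adipose progenitor markers 3 were above background, with Cd34 at 14.25 but neither Adipoq nor Plin1. Of 5 macrophage markers 2 were above background, without Adgre1, Clec4f and Ptprc, and of 5 endothelial markers 2 were, without Pecam1, Cdh5 and Tek. The summed log2 signal of the mesothelial list was 12.85 with both agents and 13.40 with ADSC medium, against 13.32 with IL17A and 14.04 untreated, and that of the cholangiocyte list was 9.25, 10.15, 9.15 and 10.00 in the same order. In the limma fit Msln fell by 0.55 with medium (adjusted p = 0.00261) and by 0.64 with IL17A (adjusted p = 0.00315), Sox9 rose by 0.56 with medium (adjusted p = 0.0119), and Krt19 fell by 1.80 with IL17A (adjusted p = 0.00398). Stellate markers changed too: of 9 in the fit, 2 rose (Tagln and Lhx2) and 4 fell (Pdgfrb, Pdgfra, Col1a1 and Col3a1) with medium. With IL17A 1 rose (Pdgfra) and 3 fell (Col1a1, Vim and Tagln). Of 3 adipose markers, Cd34 and Ly6a fell with medium and Pparg with IL17A. Over all genes, 9.65% rose and 8.89% fell with medium, and 2.51% rose and 3.78% fell with IL17A. The part of these markers in the Klf values was not tested.

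The probes decide what was read for each gene, and those that lie across a gap in the genome or disagree with a partner probe are shown here. Probe positions are those of the mm9 build in the array files. No annotation of that build was used, so exons and UTRs are not assigned. The 60 bases of the Klf3 probe are spread over chr5:65213568-65214148 (+ strand), a span of 581 bases, and those of the Klf5 probe over chr14:99702656-99712388 (+ strand), a span of 9733 bases. The brighter Klf2 probe lies at chr8:74843761-74843820 (+ strand) and is 78.3% G and C.
Klf3: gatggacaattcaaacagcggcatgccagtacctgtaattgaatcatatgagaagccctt
Klf5: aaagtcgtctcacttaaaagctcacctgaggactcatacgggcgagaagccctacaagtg
Klf2, brighter probe: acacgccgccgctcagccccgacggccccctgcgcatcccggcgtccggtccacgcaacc

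Both Klf13 probes span gaps on the minus strand of chromosome 7, the brighter at chr7:71036629-71082857 and the dimmer at chr7:71036675-71069606. They share a run of 10 bases, in capitals below, whose last base falls at position 71036675 in both. Their 5′ ends lie 13251 bases apart. The brighter probe is assigned to the RefSeq transcript of Klf13 and the dimmer one to an Ensembl transcript of the gene, so each follows a different upstream sequence joined at the same place.
Klf13, brighter probe: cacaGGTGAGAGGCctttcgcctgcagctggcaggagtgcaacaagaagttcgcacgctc
Klf13, last 30 bases of the dimmer probe: cttgccccaacaaagagcctGGTGAGAGGC

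Of the 18 probes, 16 were above background on all 4 arrays and 1, a Klf15 probe, on none. Klf4 and Klf10 had 1 probe each and the other 8 genes had 2. Each gene was read from its brightest probe, and by that probe all 10 genes were above background on all 4 arrays. Klf11 and Klf15 were read at mean log2 levels below 5, where the spots are noisiest, and the other 8 above 7. Levels of different probes depend on the probes and are not set against each other.

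**Figure D1:**
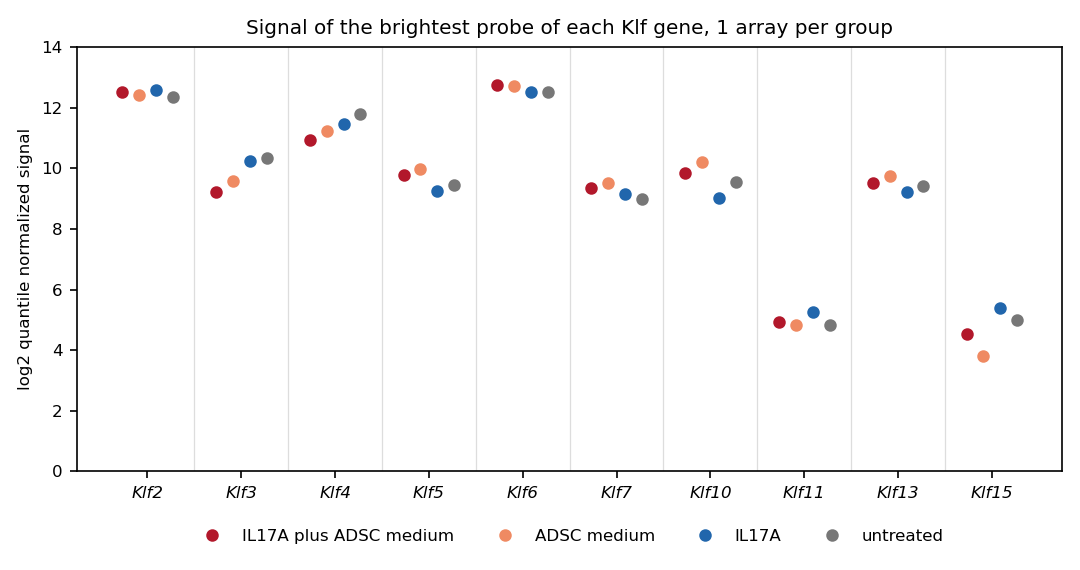
Log2 quantile normalized signal (y axis) of the brightest probe of each Klf gene (x axis), with 1 point per array and the groups in the legend's order from left to right within each gene. Klf3 and Klf4 lie lower on both medium arrays than on both arrays without medium, and Klf5 and Klf10 lie higher. Heights of different genes are not comparable, since each comes from another probe.

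ADSC medium went with changes in most of the family, in both directions. In the additive fit 5 of 10 members rose (Klf5, Klf6, Klf7, Klf10 and Klf13) and 3 fell (Klf3, Klf4 and Klf15). Of all genes tested, 9.65% rose and 8.89% fell. Those shares cover genes at all levels, whereas all members but Klf11 and Klf15 were read above 7. The SE ran from 0.052 (Klf6) to 0.10 (Klf7) in these bright members, and was 0.26 for Klf11 and 0.28 for Klf15. The sizes were modest. Past 2-fold, 0 members were higher and 1 was lower (Klf15) in ADSC medium than untreated, against 2.44% and 2.98% of all genes. In IL17A plus ADSC medium against IL17A, 0 were higher and 1 was lower (Klf3), against 3.21% and 3.11%. These calls depend on how the variance was modelled. With eBayes without a trend on level, the limma fit called 0 of the 10 members and 0 of 15476 genes in the medium term, where 3 members were higher and 3 lower at an unadjusted p of at most 0.05, among 1728 and 1615 genes of all tested. With median scaling it called 0 members, with 76 genes higher and 159 lower, and at an unadjusted p of at most 0.05 it had Klf3 and Klf15 lower, among 441 genes higher and 494 lower. With 75th percentile scaling 2 members rose and 2 fell, with 581 genes higher and 629 lower. The median difference of the members was 0.13 for medium alone and 0.07 for medium added to IL17A, beside 0.04 and 0.02 over all genes, and rises and falls in the family offset each other.

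Klf3, the CtBP-dependent repressor, was the member furthest down among those read well above the noise. Its log2 signal was 9.22 with both agents and 9.58 with ADSC medium, against 10.23 with IL17A and 10.33 untreated. Both medium arrays lay below both arrays without medium. The differences were -1.01 with IL17A present, a 2.01-fold lower signal, and -0.75 without it. Both exceeded the technical SD of 0.086 several times over, but that SD holds no variation between arrays or slides. In the fit Klf3 fell by 0.88 (SE 0.087) on the log2 scale with medium (limma, adjusted p = 0.00186). The 2.01-fold call sits at the threshold and was lost with the mean of the gene's probes and under normexp background correction, where the difference was -0.75 and -0.79.

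Klf4, one of the reprogramming factors and a regulator of smooth muscle differentiation, stepped down with each agent. The log2 signal was 10.92 with both agents, 11.22 with ADSC medium, 11.45 with IL17A and 11.78 untreated. The medium differences were -0.53 with IL17A and -0.57 without it, which differ by less than the technical SD. In the fit Klf4 fell by 0.55 (SE 0.058) with medium, with a limma adjusted p of 0.00252.

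Klf5, an activator linked to proliferation of smooth muscle and epithelial cells, moved the opposite way. It was read at 9.78 with both agents and 9.98 with ADSC medium, against 9.27 with IL17A and 9.43 untreated. The medium differences of 0.52 and 0.55 were nearly equal with and without IL17A. The fitted rise was 0.53 (SE 0.075) on the log2 scale, with a limma adjusted p of 0.00632.

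Klf6, the factor cloned from activated stellate cells, showed a small rise with medium. It had log2 signals of 12.74 with both agents and 12.72 with ADSC medium, against 12.52 with IL17A and 12.52 untreated. The fitted change was 0.21 (SE 0.052) with a limma adjusted p of 0.0360, and 5 of 8 alternatives ended that call. Here and below, the stricter background filter, RefSeq-matched probes and every probe fitted on its own leave a member's signals unchanged. They alter only the other genes or probes in the fit. Klf7, studied mostly in neurons and adipocytes, had 9.36 with both agents and 9.52 with ADSC medium, against 9.14 with IL17A and 8.97 untreated. Its fitted rise of 0.39 (SE 0.10) had a limma adjusted p of 0.0425, which 4 of 8 alternatives ended.

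Klf2, which endothelial cells induce under flow, did not move with medium by its brighter probe. The signals were 12.51 with both agents, 12.40 with ADSC medium, 12.59 with IL17A and 12.35 untreated. The fitted medium change was -0.02 (SE 0.059), with a limma adjusted p of 0.885.

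Among the Sin3a-binding members, Klf10, the TGF-beta inducible early gene, gave the largest rise in the family. Its log2 signal was 9.84 with both agents and 10.19 with ADSC medium, against 9.03 with IL17A and 9.56 untreated. The medium differences were 0.80 with IL17A and 0.64 without it. The fitted rise was 0.72 (SE 0.081) with a limma adjusted p of 0.00291, and it kept its side of the threshold in 6 of 8 alternatives. Klf13, an activator of Ccl5 in T cells, had 9.51 with both agents and 9.76 with ADSC medium, against 9.21 with IL17A and 9.43 untreated by its brighter probe. Its fitted rise of 0.32 (SE 0.077; limma adjusted p = 0.0338) kept its call in 3 of 8 alternatives and turned to a difference of -0.81 when the gene's probes were averaged, and the dimmer probe is described below. Klf11 had 4.93, 4.83, 5.25 and 4.84 in the same order, and its fitted medium change of -0.16 had a limma adjusted p of 0.723.

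Klf15, induced by glucocorticoids and by fasting in liver and muscle, gave the largest fitted fall, at a low level. The log2 signal was 4.52 with both agents and 3.81 with ADSC medium, against 5.39 with IL17A and 5.0 untreated. The linear processed signals behind them were 24.7 and 12.6 against 39.3 and 35.9. Medium alone lay 2.29-fold below untreated, and the difference with IL17A present was -0.87, each beside a technical SD of 0.31. Under normexp background correction the first of these differences was -0.37 and with the mean of the gene's probes, of which the other was dim, -0.15. The fitted fall was 1.03 (SE 0.28), with a limma adjusted p of 0.0487 that 4 of 8 alternatives ended.

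**Figure D2:**
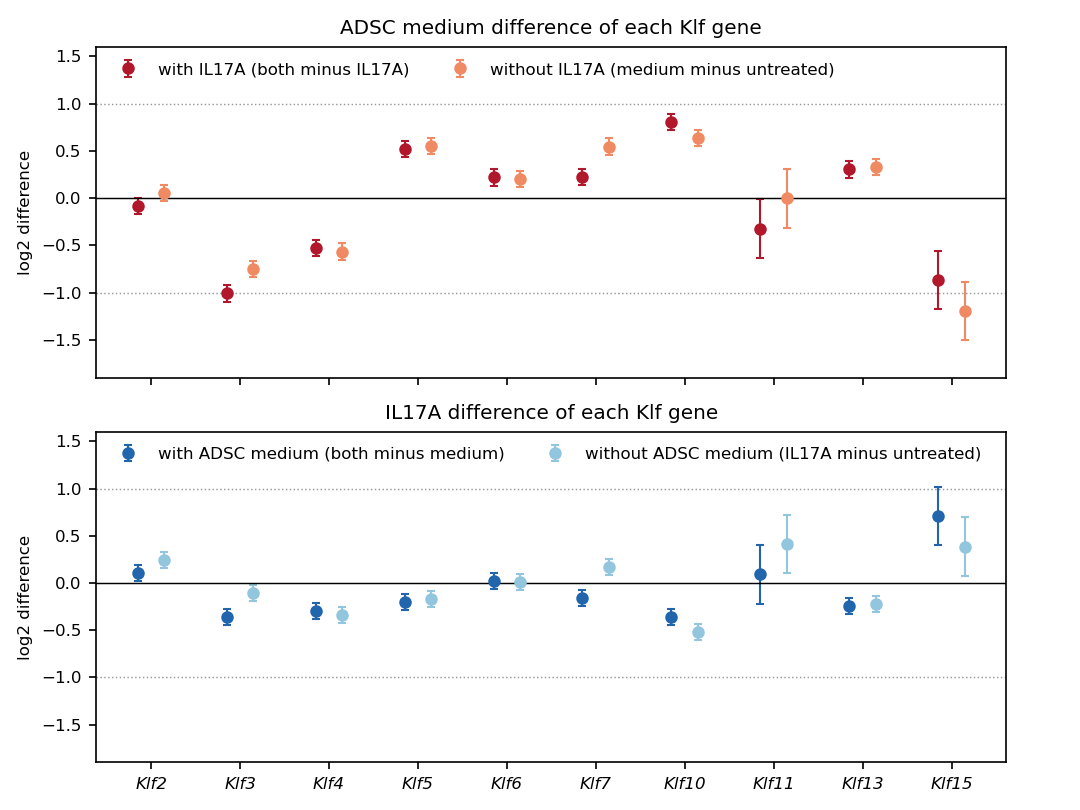
Log2 difference (y axis) of each Klf gene (x axis), for ADSC medium with and without IL17A (upper panel) and for IL17A with and without ADSC medium (lower panel). Bars show the technical SD of a difference from repeated spots within an array, without variation between arrays, and dotted lines mark 2-fold. Medium differences reach -1.19 for Klf15 and 0.80 for Klf10, while IL17A differences stay between -0.52 and 0.71.

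IL17A went with smaller changes, and none reached 2-fold. Against untreated cells, 0 of 10 members were past 2-fold in either direction, beside 2.17% of all genes higher and 2.29% lower. In IL17A plus ADSC medium against ADSC medium the count was again 0 in either direction, beside 2.86% and 1.82%. The member medians were -0.05 and -0.18, beside 0.00 and -0.03 over all genes. In the limma fit 2 members fell (Klf4 and Klf10) and 0 rose, while 2.51% of genes rose and 3.78% fell. At an unadjusted p of at most 0.05 the fit had 1 member higher (Klf2) and 5 lower (Klf3, Klf4, Klf5, Klf10 and Klf13). That was among 1157 genes higher and 1802 lower of all 15476 tested. Klf2 was read there from its brighter probe, and its IL17A estimate was -0.27 with the mean of its probes, which disagree.

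Klf10 was 0.36 lower in IL17A plus ADSC medium than in ADSC medium and 0.52 lower in IL17A than untreated. The fitted fall was 0.44 (SE 0.081), with a limma adjusted p of 0.0268. IL17A and medium thus had opposite signs for Klf10, and its level with both agents lay between that with medium and that untreated. Klf4 was 0.30 lower with IL17A in medium and 0.34 lower without it, and its fitted fall of 0.32 (SE 0.058) had a limma adjusted p of 0.0273. Both IL17A calls ended in 5 of 8 alternatives. The 3 that kept them were the stricter background filter, RefSeq-matched probes and every probe fitted on its own, which leave the members' signals unchanged. Over all 8 the limma adjusted p ran from 0.0106 to 1 for Klf4 and from 0.00757 to 1 for Klf10. The fitted falls stayed between 0.32 and 0.34 for Klf4 and between 0.43 and 0.46 for Klf10.

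Klf15 had IL17A differences of 0.71 within medium and 0.38 without it, and the fitted 0.55 (SE 0.28) did not pass the test (limma, adjusted p = 0.373). Klf6 gave an IL17A estimate of 0.01 (SE 0.052) on the log2 scale, with differences of 0.02 within medium and 0.01 without it. Klf7 gave 0.00 (SE 0.10) in the fit, where differences of opposite sign averaged out. The estimates for the other members were 0.17 for Klf2, -0.23 for Klf3, -0.18 for Klf5, 0.25 for Klf11 and -0.23 for Klf13, with limma adjusted p-values between 0.157 and 0.714.

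**Figure D3:**
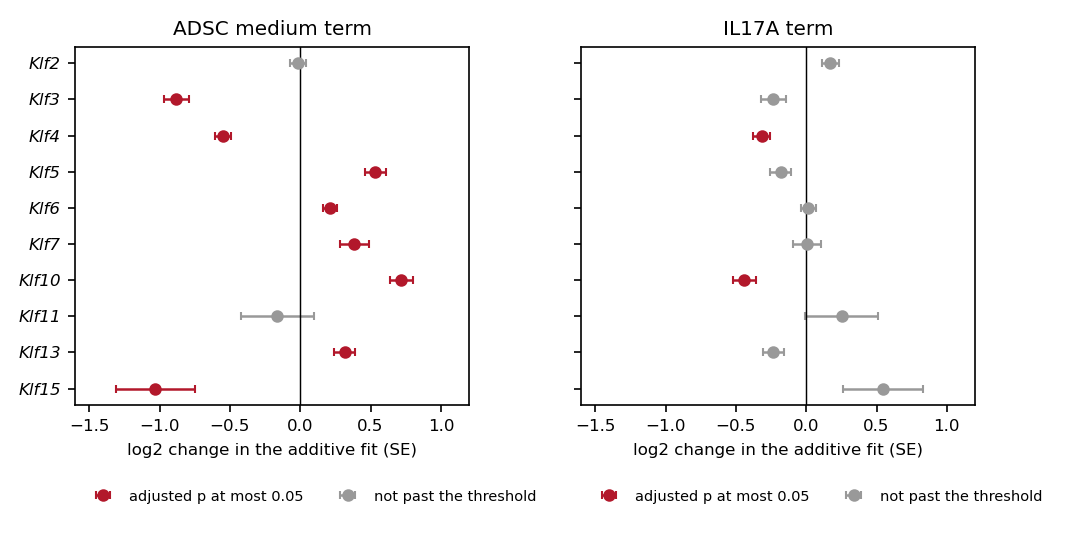
Log2 change of each Klf gene (rows) in the ADSC medium term (left) and the IL17A term (right) of the additive fit over 4 arrays, with bars for the SE. Red points have an adjusted p of at most 0.05 and grey points do not: 8 genes are red for medium, and Klf4 and Klf10 for IL17A.

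With both agents against untreated cells, 0 members were past 2-fold higher and 1 was lower, Klf3, by 2.17-fold, beside 3.37% and 4.28% of all genes. The Klf3 call was lost with the mean of its probes, at -0.86, and under normexp background correction, at -0.87. Klf4 followed with a difference of -0.87, and its medium and IL17A differences had the same sign. Klf10 ended 0.28 above untreated and Klf13 0.08 above. Klf15 lay 0.48 below untreated cells, less far than with medium alone. The difference of the IL17A differences with and without medium was past 2-fold in 0 members, beside 3.69% higher and 1.57% lower over all genes, and ran from -0.32 in Klf7 to 0.33 in Klf15. This difference has no test, since it leaves no residual degrees of freedom.

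Where a gene had a pair of probes above background on all 4 arrays, the probes did not always move alike. That was so for 6 genes, and each probe was fitted on its own. For Klf3 the second probe, 6975 bases downstream, read 8.03 with both agents and 8.28 with ADSC medium, against 8.53 with IL17A and 8.63 untreated. It fell with medium by 0.42 (SE 0.10; limma, adjusted p = 0.0254), in the same direction and less far than the probe across the gap. Klf6 and Klf7 rose with medium by both probes. The second Klf6 probe rose by 0.35 and the second Klf7 probe by 0.36, with limma adjusted p-values of 0.0109 and 0.0413.

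The Klf2 probes disagreed on IL17A. The second probe, 1376 bases downstream, read 9.79 with both agents and 10.73 with ADSC medium, and 10.08 with IL17A against 10.54 untreated. Both IL17A arrays lay below both arrays without IL17A. That probe fell by 0.70 (SE 0.105) with IL17A (limma, adjusted p = 0.00608), while the brighter probe had an estimate of 0.17 (adjusted p = 0.182). The probes are 43.3% and 78.3% G and C, and the part of base composition in the disagreement was not tested.

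The Klf13 probes disagreed on medium. The dimmer probe, which joins the other upstream sequence shown above, read 2.98 with both agents and 3.50 with ADSC medium, against 5.51 with IL17A and 4.86 untreated. Its linear processed signals were 8.75 and 10.2 against 43.1 and 32.5. Both medium arrays lay below both arrays without medium, and the fitted fall was 1.94 (SE 0.39; limma, adjusted p = 0.0114), where the brighter probe rose by 0.32. These low signals have a technical SD of 0.31. The probes thus did not move together, and whether 2 transcripts of Klf13 changed in opposite directions was not tested. In the IL17A term the pairs of Klf6 (0.01 and -0.00), Klf7 (0.00 and -0.05) and Klf13 (-0.23 and 0.07) also differed in sign, each with at least 1 probe nearer to 0 than its SE.

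**Figure D4:**
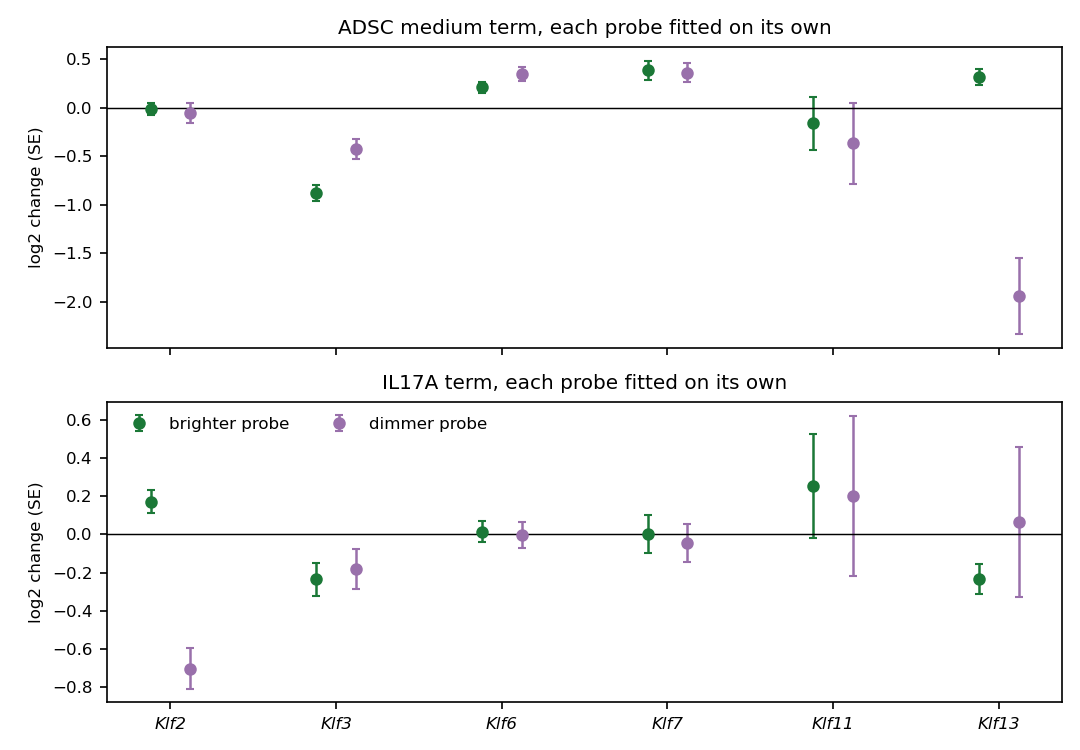
Log2 change with SE (y axis) in the ADSC medium term (upper panel) and the IL17A term (lower panel) for the 6 Klf genes with a pair of probes above background on all 4 arrays (x axis). The probe pairs point opposite ways, each probe by more than its SE, for Klf13 in the medium term and for Klf2 in the IL17A term, and the same way for Klf3, Klf6 and Klf7 in the medium term.

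Promoters are shown for the 3 members that fell with medium and for Klf6, which rose. RefSeq promoters of the GRCm38.p6 build, 250 bases before to 50 after the start, were matched for 8 of 10 members by symbol. Klf5 and Klf10 had no entry. The GC box GGGGCGGGG, the kind of element the family itself can bind, was found on either strand in 6 of 8 (Klf2, Klf3, Klf4, Klf11, Klf13 and Klf15), beside 11.5% of 27025 promoters. All 3 members that fell with medium and had an entry carried it, and so did Klf13, which rose by its brighter probe, while Klf6 and Klf7, which rose, did not. Klf2 and Klf11 also carried it, and their medium changes of -0.02 and -0.16 did not pass the test (limma, adjusted p = 0.885 and 0.723). The members' windows were 58.3% to 77.7% G and C, at percentiles 66.7 to 98.0 of all promoters, and the part of base composition in these matches was not tested. The bases upstream of the start are shown, with the GC box in capitals. They lie at chr5:64803271-64803520 (+) for Klf3, chr4:55532476-55532725 (- strand) for Klf4, chr6:90462326-90462575 (+) for Klf15 and chr13:5861239-5861488 (+) for Klf6.
Klf3: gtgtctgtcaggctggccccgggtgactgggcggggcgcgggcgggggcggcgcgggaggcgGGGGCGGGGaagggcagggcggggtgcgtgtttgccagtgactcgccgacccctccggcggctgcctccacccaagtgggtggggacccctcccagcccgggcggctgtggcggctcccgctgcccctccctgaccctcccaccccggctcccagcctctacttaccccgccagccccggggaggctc
Klf4: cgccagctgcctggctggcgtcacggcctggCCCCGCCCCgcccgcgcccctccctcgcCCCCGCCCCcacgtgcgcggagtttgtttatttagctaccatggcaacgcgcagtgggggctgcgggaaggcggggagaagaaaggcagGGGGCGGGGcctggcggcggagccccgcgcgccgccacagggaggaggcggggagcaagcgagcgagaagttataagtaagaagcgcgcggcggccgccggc
Klf15: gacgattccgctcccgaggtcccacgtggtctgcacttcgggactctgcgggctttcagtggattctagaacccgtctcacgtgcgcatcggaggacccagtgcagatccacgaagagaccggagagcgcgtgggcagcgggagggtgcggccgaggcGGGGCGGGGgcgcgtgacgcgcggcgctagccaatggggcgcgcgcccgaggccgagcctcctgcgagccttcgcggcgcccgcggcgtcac
Klf6: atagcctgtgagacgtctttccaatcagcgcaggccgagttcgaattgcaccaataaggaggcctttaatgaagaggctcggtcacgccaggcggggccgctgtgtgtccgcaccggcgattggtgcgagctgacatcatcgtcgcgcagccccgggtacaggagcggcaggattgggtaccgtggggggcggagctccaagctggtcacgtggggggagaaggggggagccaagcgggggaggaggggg

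Other letters searched on both strands were in none of the 8 windows. They were the C/EBP motif TTNCNNAA, found in 40.8% of all promoters, the cAMP response element TGACGTCA in 1.78%, the CACCC box CCACACCC in 3.58% and the TATA box TATAAA in 14.1%, and, by name, the kappaB motif in 1.64%, the MEF2 motif in 0.152%, the CArG box in 1.54% and the glucocorticoid element in 0. The absence says only that these letters are not in these windows.

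Of the 7 Klf genes outside the group, 2 were well above background on all arrays at log2 levels over 7, Klf9 and Klf16. Klf9, a Sin3a-binding relative induced by glucocorticoids and thyroid hormone, had 8.77 with both agents and 8.30 with ADSC medium, against 9.05 with IL17A and 8.85 untreated. It fell with medium by 0.42 (limma, adjusted p = 0.0366), and its second probe fell as well. Klf16 had 9.28, 9.18, 9.10 and 9.20 in the same order and a medium estimate of 0.09 (limma, adjusted p = 0.571). Klf1, the erythroid factor, was dim, with 3.39 with both agents, 3.93 with ADSC medium, 3.70 with IL17A and 2.88 untreated, so that medium alone lay 2.07-fold above untreated. Klf8 was above background on 3 arrays, Klf17 on the array with both agents alone, and Klf12 and Klf14 on none.

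The genes around the family were read from lists. Over all genes tested, 9.65% rose and 8.89% fell in the medium term, and 2.51% rose and 3.78% fell in the IL17A term. None of the Sp factors, the nearest relatives of the family, passed the test in either term, with 5 of 8 tested. In IL17A plus ADSC medium against IL17A, the difference was -0.78 in Sp6, -0.77 in Sp4 and -0.37 in Sp2. Sp7 was above background on the IL17A array alone, being at least 1.42-fold lower with both agents than with IL17A, and at least 1.67-fold higher with IL17A than in untreated cells. Of 12 corepressors and coactivators, 1 rose with medium, the demethylase Kdm1a, and 1 fell, the acetyltransferase Ep300, by 0.35 (limma, adjusted p = 0.050). The corepressors Ctbp1, Ctbp2 and Sin3a did not pass the test. Kat2b lay 0.52 below untreated with both agents, and Hdac2 lay 0.42 below IL17A.

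Of 6 ubiquitin ligases that act on Klf proteins, Smurf2 fell by 0.39 and Fbxo32 by 0.54 with medium (limma, adjusted p = 0.0232 and 0.0453), and 0 rose. In that term 8.89% of all genes fell and 9.65% rose. Smurf1 had a medium estimate of 0.28 that did not pass. The MEK5-ERK5-MEF2 route that induces Klf2 and Klf4 in endothelial cells had 0 of 6 tested genes past the test in either term. Its largest differences were -0.33 for Mef2d in medium alone, 0.29 for Map3k3 in medium added to IL17A and 0.25 for Map2k5 with both agents against untreated.

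Genes reported as Klf6 targets, taken from textbook knowledge and mostly from other cells, moved in both directions with medium: 3 of 7 rose and 1 fell. Of all genes, 9.65% rose and 8.89% fell in that term. The cell cycle inhibitor Cdkn1a was read at 11.21 with both agents and 11.09 with ADSC medium, against 9.91 with IL17A and 9.72 untreated, and rose by 1.33 (limma, adjusted p = 0.000256). Tgfb1, which encodes the main fibrogenic cytokine, rose by 0.75 (adjusted p = 0.00453). The collagen gene Col1a1 fell by 0.43 with medium and by 0.65 with IL17A (limma, adjusted p = 0.0330 and 0.0180). Klf6 itself changed by 0.21 and 0.01 in the same terms.

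Of 13 genes reported as targets of other Klf factors, 5 rose and 1 fell with medium, beside 9.65% and 8.89% of all genes. With IL17A 4 rose and 2 fell, beside 2.51% and 3.78%. Ccl5, a chemokine gene that Klf13 activates in T cells, rose by 0.99 with IL17A and by 0.50 with medium (limma, adjusted p = 0.00226 and 0.0106). Klf13 had estimates of -0.23 and 0.32 in these terms by its brighter probe. Pdgfa rose by 0.48 with IL17A and 0.49 with medium. The cyclin gene Ccnd1 fell by 1.07 with IL17A (limma, adjusted p = 0.0105).

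Immediate early genes, with which Klf2, Klf4, Klf6 and Klf10 are often induced, moved further than the family. With medium, 7 of 10 rose and 0 fell, beside 9.65% and 8.89% of all genes. The median difference of medium alone against untreated was 1.37, beside 0.13 in the members and 0.04 over all genes. Egr1 was read at 10.41 with both agents and 11.49 with ADSC medium, against 7.94 with IL17A and 8.72 untreated, and rose by 2.62 with medium (limma, adjusted p = 0.000173). Junb rose by 0.96 with medium and Ier3 by 0.55. With IL17A, 3 rose, among them Ier3 by 2.44 and Junb by 1.04, and 2 fell, among them Egr1 by 0.93. In that term 2.51% of all genes rose and 3.78% fell. The term averages unlike differences. The list's median IL17A difference was 0.96 without medium and -0.33 within it, beside 0.00 and -0.03 over all genes.

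Among glucocorticoid-responsive genes, a class to which Klf9 and Klf15 belong, 2 of 6 rose with medium and 1 fell, beside 9.65% and 8.89% of all genes. Sgk1 rose by 0.53 and Errfi1 by 0.74, while Dusp1 fell by 0.94 (limma, adjusted p = 0.00216, 0.0102 and 0.00113). Dusp1 was thus lower on the same arrays as Klf15, which fell by 1.03, and Klf9, which fell by 0.42, and Sgk1 was higher.

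By brightest probes, Klf15 had the widest range over the 4 arrays, 1.58 on the log2 scale. The dimmer Klf13 probe ranged over 2.53. For Klf15, read from its brighter probe, the genes with the nearest centred profile were sought among 14482 compared. They were C8g at a Euclidean distance of 0.213, Klhl24 at 0.265, Hbp1 and Cpne8 at 0.27 and Nfkb1 at 0.30. With 4 arrays such nearness is a description. The distances lie below the technical SD of 0.31 at the level of Klf15, so their order carries no weight. The authors deposited a list of 1193 probes higher in IL17A than in IL17A plus ADSC medium, beside 41174 probes on the array. It held 2 of 18 member probes, the gap-spanning Klf3 probe and the brighter Klf15 probe. Their deposited list of 861 probes higher in IL17A than untreated held 0. Both lists belong to this same series, so they are no separate evidence.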

How the data were processed

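Deposited values were linear processed signals (intensity), background-subtracted within each array per the file headers (Feature Extraction 12.1.1.1), with mean and background intensities beside them. Flags of 0 or 1 for spots above background or outlying were deposited as score columns per the file headers. The authors' lists hold probe IDs, an other kind of value, deposited with no threshold. Quantile normalization is stated in the series design text, and R 3.5.1 in the submitters' processing notes.

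Log2 signals of 4 arrays were quantile normalized without outlier spots (91 to 126 per array), no spot being saturated, and a probe's spots were averaged. RefSeq accessions named 29204 of 41174 probes. Symbols named 5318, older symbols 150, and the file alone named 6502. Each gene was read from its brightest probe. A comparison called a gene past 2-fold if the brighter array was well above background. A dim side was raised to the lowest signal well above background on its array. The number of arrays limits the precision.

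Genes above background on at least 2 arrays entered the fit (limma 3.58.1, R 4.3.3; lmFit, then eBayes with trend). Scripts used Python 3.11.15. Both rules were run on simulated data that held additive IL17A effects alone. The medium term, slide effects and departures from additivity were not checked there. Members and lists were chosen with earlier results of these data known. Named were all members, other Klf genes above background, up to 3 genes per list with the largest difference, and the 5 nearest profiles of the member with the widest range. Genes beyond these were named where a count of 5 or fewer was given, after their values were seen. Alternatives were 75th percentile and median scaling, normexp with an offset of 50, a stricter and no filter on background, probe means, RefSeq-matched probes, 1.5-fold and 4-fold thresholds and eBayes without a trend. Fitting every probe on its own was added after seeing the data.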

Additional observations from a re-analysis of the deposited data

Results flagged for a closer look

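For Klf7 the IL17A difference was -0.16 with ADSC medium (IL17A plus ADSC medium against ADSC medium) and 0.17 without it (IL17A against untreated), so the single array pairs point opposite ways. The technical SD of a difference at this level was 0.086. For Klf2 the medium difference was -0.085 with IL17A and 0.051 without it, each no larger than that SD. Neither opposition was tested, since the 4 arrays leave no residual degrees of freedom for it.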

How the results depend on the processing

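Each value has 1 array per group, and every alternative reuses the same arrays. No paired analysis was possible because each group had 1 array and so no replicate numbers to pair, while the IL17A term of the fit already compares arrays within a slide. Across all alternatives, 456 of 580 values of single members kept their call and moved by less than the technical SD where no test applied, 36 lost a fitted call and 87 values with no test moved further. By brightest probes all 10 members were above background on all 4 arrays and RefSeq-matched. The stricter filter, no filter and RefSeq-matched probes therefore could not move the differences between arrays. Their values count among the 456, which thus overstates how stable the values are. For Klf13 the fitted medium change reversed to -0.81 with the mean of its probes, which go opposite ways. The Klf2 estimate for IL17A, which had not passed the test, turned from 0.17 to -0.27 with the mean of its probes.

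Counts of members moved as follows. In the medium term 5 rose in the fit as reported, but 2 with 75th percentile scaling, 0 with median scaling, 3 with normexp, 1 with the mean of probes and 0 with eBayes without a trend. For falls the count of 3 became 0 with median scaling and 0 without a trend. In the IL17A term the 2 falls became 0 with 75th percentile scaling, median scaling, normexp, the mean of probes and eBayes without a trend. For medium alone against untreated the 1 lower member became 0 with normexp, 0 with the mean of probes, 2 at 1.5-fold and 0 at 4-fold, and 1 was higher at 1.5-fold (Klf10). For both agents against IL17A the 1 lower became 0 with normexp, 2 at 1.5-fold and 0 at 4-fold, and 1 was higher with the mean of probes (Klf5) and 1 at 1.5-fold (Klf10). With the mean of probes the 1 lower was Klf13 in place of Klf3. For both agents against untreated the 1 lower became 0 with normexp, 0 with the mean of probes, 2 at 1.5-fold and 0 at 4-fold. For both agents against ADSC medium 1 member, Klf15, was higher at 1.5-fold. The cause of these changes was not tested.

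Median scaling moved the median difference of all genes to 0.21 for IL17A against untreated, -0.24 for both agents against medium, 0.27 for medium against untreated and -0.17 for both agents against IL17A, so member differences under it are to be read against those medians. Counts over all genes ran from 227 to 696 by the size rule, and from 15 to 177 with normexp, 148 to 534 above background on all arrays, 952 to 1966 without a filter, 62 to 778 with 75th percentile scaling, 66 to 492 on RefSeq-matched probes, 861 to 1701 at 1.5-fold and 12 to 147 at 4-fold. Fitted counts ran from 388 to 1493, and from 71 to 629 with 75th percentile scaling, 56 to 159 with median scaling, 221 to 1598 with normexp, 122 to 592 with probe means, 544 to 1985 on RefSeq-matched probes, 577 to 2082 with every probe fitted and 0 without a trend. With 75th percentile scaling 33.0% of the called genes were higher in IL17A than untreated (48.7% as reported), 80.9% in both agents than medium (61.1%), 29.0% in medium than untreated (45.0%), 67.5% in both agents than IL17A (50.8%) and 58.7% in the IL17A term (39.9%). For the difference of differences the share was 92.6% so scaled and 57.3% with median scaling (70.2%), and median scaling gave 32.3% in the medium term (52.0%) and 66.3% in the IL17A term.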
